A study of Mus musculus with 13 samples.

Results

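The genes described here are the mouse beta-defensins, taken as every gene whose symbol is Defb followed by a number, together with 10 genes for proteins that the epididymal epithelium secretes or carries on its surface: Crisp1, Crisp4, Lcn5, Lcn8, Lcn9, Adam7, Gpx5, Rnase9, Rnase10 and Cst11. By symbol, 52 genes met this rule, 42 of them beta-defensins. No probe of the array was named for Crisp4, which left 51 members of 19752 named genes. The members were chosen by name, and their signals on white fat arrays were known when they were chosen.

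The epididymis is the coiled duct in which sperm mature after they leave the testis. Its epithelium changes along the duct, from the initial segment through the caput (head) and corpus to the cauda (tail), and each segment releases its own proteins onto passing sperm. Beta-defensins are small cationic peptides with antimicrobial activity, and in rodents many of them are made chiefly by this epithelium. The duct continues as the vas deferens, and the seminal vesicles and prostate add their secretions further on. None of these genes is a known marker of adipocytes. In male mice the perigonadal white fat pad is attached to the epididymis.

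The study hybridised RNA from fat of male C57BL/6J mice to 13 single-dye Agilent arrays. White adipose tissue (WAT) came from Fv2E-PERK mice given AP20187 (3 arrays), from Fv2E-PERK mice given vehicle (2 arrays) and from untreated wild-type mice (3 arrays), and brown adipose tissue (BAT) came from Fv2E-PERK mice given AP20187 (2 arrays) or vehicle (2 arrays). Fv2E-PERK joins the kinase of the endoplasmic reticulum stress sensor PERK to a domain that the ligand AP20187 brings together. The ligand was injected intraperitoneally at 100 ng/g and tissue was taken 12 h later. The labels write the transgene as mAP::Fv2E-PERK and explain neither the prefix nor the white fat depot, the age of the mice or the number of animals behind an array, and their treatment protocol names muscles although every sample is labelled as fat. No wild-type mice received AP20187, so ligand and activated kinase cannot be told apart. The 13th array carries the labels of both tissues and entered no group. Nothing states that arrays came from separate animals, so p-values measure only the spread between arrays.

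Levels below are log2 processed signals from which the array's own 75th percentile has been subtracted, so 0 is the brightness of the probe at that percentile and levels are on a log2 scale. Levels are compared between arrays for 1 gene, never between genes. A probe counts as measured above background where the scanner software marked it so. A gene stands out on a white fat array where its probe is well above background there and at least 2 log2 units above the median of the other 7 white fat arrays. The lowest level of any probe well above background was between -6.23 and -4.42 on the 8 white fat arrays and between -4.97 and -4.46 on the 4 brown fat arrays. In whole tissue, fewer cells of a type and less RNA per cell cannot be told apart.

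Of the adipocyte genes, Ucp1, the uncoupling protein of brown fat, lay between 9.87 and 10.63 on the brown fat arrays, against -7.23 to -3.41 on the white ones, whereas Zic1, another brown fat marker, had -2.17 to -1.85 on the brown arrays and -2.22 to -1.45 on the white ones. The 7 white adipocyte markers averaged 7.07 to 7.37 on the brown fat arrays and 7.55 to 8.75 on the white ones. The 7.55 was that of AP20187 array 1, where Fabp4 had no value and so did not enter the mean. Fabp4 had 9.64 to 10.31 on the other white fat arrays. Signal over background was lower on the AP20187 arrays of white fat, where 49.0 to 51.5% of spots were well above background, against 61.2 and 64.0% on vehicle arrays and 57.9 to 60.6% on wild-type arrays. Slide 2 carried AP20187 arrays 1 to 3 and vehicle array 2, and slide 1 carried vehicle array 1 and wild-type arrays 1 to 3. Slide 3 carried all brown fat arrays, so slide and brown fat cannot be told apart. No slide held both AP20187 and wild-type arrays of white fat, so a direct comparison of these groups is also one of slides. AP20187 arrays 1 and 2 and wild-type array 3 stood apart from the other white fat arrays on the genes described here, and results that rest on them are also given without them.

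The members' signal was concentrated on 3 of the 8 white fat arrays. On AP20187 array 1, 38 of 46 measured members stood out (82.6%), against 4.52% of 36675 features, and the level minus the median of the other white fat arrays had a median of 10.94 log2 units over members and of 0.18 over all features. For 31 of these 38 members most of the other arrays were not well above background, so such differences are not exact. With every level raised to the lowest level well above background on its array, a bound, 37 members stood out, against 4.2% of features, and the median was 9.81, against 0.40 for all features. On AP20187 array 2, 22 of 51 members stood out, against 0.465% of all features, with a median member difference of 1.68, or 1.18 with levels so raised, when 20 members stood out. On AP20187 array 3, only Gpx5 stood out, where 0.3% of all features did, and with raised levels no member did.

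Among the 5 control arrays of white fat, wild-type array 3 was the exception. On it 14 of 51 members stood out, against 1.56% of all features, and 12 with raised levels. Defb4 alone stood out on vehicle array 1 (0.797% of all features), Crisp1 alone on wild-type array 1 (0.339%), and no member on vehicle array 2 (2.58%) or wild-type array 2 (0.485%). On the ungrouped array, 0 members stood out, against 0.334% of all features. Altogether 43 members stood out on at least 1 white fat array and 8 on none. AP20187 arrays thus ranged between 38 members and 1, and wild-type arrays between 14 and 0, so that neither group was uniform.

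**Figure D1:**
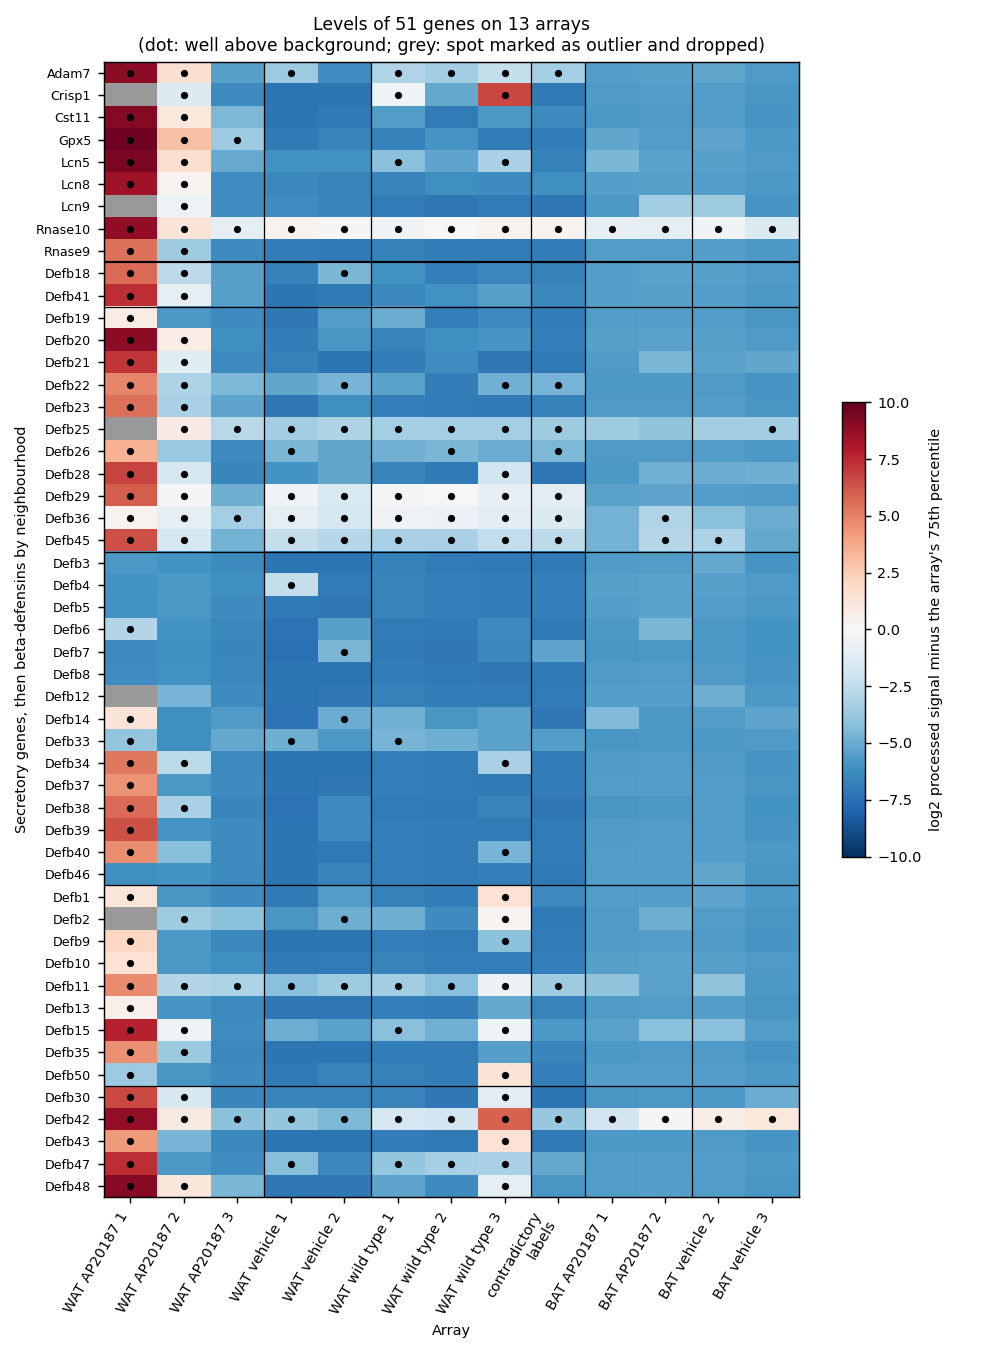
Each row is 1 of the 51 genes and each column 1 of the 13 arrays, with colour for the log2 level relative to the array's 75th percentile, a black dot where the probe was well above background, and grey for 5 spots that were marked as outliers and dropped. The red columns are WAT AP20187 1 (38 genes standing out), the paler WAT AP20187 2 (22) and, for fewer rows, WAT wild type 3 (14).

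Promoter sequences are shown for 4 members that represent the patterns described next: Lcn5, Defb41 and Defb48, bright on AP20187 arrays 1 and 2, and Crisp1, bright on wild-type array 3. They are from RefSeq on build GRCm38.p6, 250 bases before to 50 after the annotated start, read 5′ to 3′ on the gene's strand. Capitals mark the TATA box letters TATAAA and the androgen receptor half-site letters AGAACA, each searched on both strands. The windows are chr2:25657702-25658001 on the plus strand for Lcn5, chr1:18265089-18265388 on the minus strand for Defb41, chr14:62984461-62984760 on the minus strand for Defb48 and chr17:40319158-40319457 on the minus strand for Crisp1.
Lcn5: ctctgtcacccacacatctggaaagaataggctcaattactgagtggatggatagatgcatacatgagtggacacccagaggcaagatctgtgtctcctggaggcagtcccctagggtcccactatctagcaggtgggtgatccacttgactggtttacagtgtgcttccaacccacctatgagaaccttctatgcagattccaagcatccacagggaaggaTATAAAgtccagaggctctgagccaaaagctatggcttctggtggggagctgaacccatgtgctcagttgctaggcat
Defb41: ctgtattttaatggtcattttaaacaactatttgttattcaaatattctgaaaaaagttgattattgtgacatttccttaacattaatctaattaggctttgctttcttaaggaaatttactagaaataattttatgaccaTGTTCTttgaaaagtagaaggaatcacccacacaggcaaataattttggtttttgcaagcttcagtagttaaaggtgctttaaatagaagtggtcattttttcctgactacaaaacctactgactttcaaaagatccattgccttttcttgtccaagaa
Defb48: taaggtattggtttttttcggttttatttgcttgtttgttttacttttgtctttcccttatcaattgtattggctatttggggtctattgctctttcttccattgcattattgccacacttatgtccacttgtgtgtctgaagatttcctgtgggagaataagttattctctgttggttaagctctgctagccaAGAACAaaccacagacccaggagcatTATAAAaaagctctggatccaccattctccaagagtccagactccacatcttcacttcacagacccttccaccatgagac
Crisp1: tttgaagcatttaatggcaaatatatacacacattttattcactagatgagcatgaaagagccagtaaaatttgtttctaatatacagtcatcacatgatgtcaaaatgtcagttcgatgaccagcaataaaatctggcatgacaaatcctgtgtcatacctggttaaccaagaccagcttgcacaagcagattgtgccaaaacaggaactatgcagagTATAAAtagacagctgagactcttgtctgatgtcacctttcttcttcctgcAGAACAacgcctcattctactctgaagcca

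In Lcn5, Defb48 and Crisp1 the TATA box letters began at -28, -30 and -31 relative to the start. The half-site letters began at -109 in Defb41, at -56 in Defb48 and at 20, behind the start, in Crisp1, and Lcn5 held none. The promoter table covered 36 members with 38 promoters. Half-site letters occurred in 23 of these 38 (60.5%), against 19.0% of all 32851 promoters, and TATA box letters in 7 (18.4%), against 13.6%. By gene, the half-site letters were found for 4 of 7 secretory genes and, over the 5 beta-defensin neighbourhoods described below, for 1 of 1 gene around Defb41, 5 of 9 around Defb20, 5 of 9 around Defb38, 3 of 5 around Defb15 and 4 of 5 around Defb48. Related promoters share sequence, so these shares are a description of letters and not of binding.

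Among the secretory genes, Gpx5 encodes a glutathione peroxidase that the caput secretes and that protects sperm from oxidation. Gpx5 levels were 9.75, 2.93 and -3.60 on AP20187 arrays 1 to 3, against -7.09 and -6.71 on vehicle arrays 1 and 2 and -6.76, -5.92 and -6.96 on wild-type arrays 1 to 3. Its probe was well above background on all 3 AP20187 arrays and on none of the others in the study, so the groups did not overlap, although the AP20187 arrays lay far apart from each other.

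Lcn5, a lipocalin of the caput that binds retinoic acid, had levels of 9.45, 1.71 and -5.07 on AP20187 arrays 1 to 3, against -6.08 on each vehicle array and -4.18, -5.25 and -3.25 on wild-type arrays 1 to 3. Adam7, a membrane protein that the caput passes to sperm, had 8.94, 1.51 and -5.41 on AP20187 arrays, against -3.63 and -6.22 on vehicle arrays and -3.04, -3.45 and -2.37 on wild-type arrays. For both genes AP20187 array 3 lay among the control arrays, so the groups overlapped.

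Lcn8, a lipocalin of the initial segment, had 8.49, 0.30 and -6.17 on AP20187 arrays, against -6.48 and -6.71 on vehicle arrays and -6.69, -6.11 and -6.26 on wild-type arrays. Cst11, a cystatin-related protein, had 9.15, 1.07 and -4.48 on AP20187 arrays, against -7.24 and -7.07 on vehicle arrays and -5.55, -7.02 and -5.78 on wild-type arrays. Both were well above background on AP20187 arrays 1 and 2 and nowhere else. Rnase9, an epididymal member of the ribonuclease A family, followed at 5.48 and -3.55 on AP20187 arrays 1 and 2 and was not well above background on any other array. Lcn9, another lipocalin of the proximal duct, was measured above background only on AP20187 array 2, at -0.54, since its spot on array 1 was dropped.

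Rnase10, a relative of Rnase9 that is expressed in the initial segment, behaved differently because its probe had signal everywhere. It had 8.84, 1.30 and -0.87 on AP20187 arrays, against 0.36 and -0.21 on vehicle arrays and -0.34, 0.01 and 0.36 on wild-type arrays, and it was well above background on all 13 arrays. It stood out on AP20187 array 1 alone. Array 2 exceeded the median of the other 7 by less than 2 log2 units.

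Crisp1 differed from the other secretory genes in being highest on wild-type array 3. It encodes a cysteine-rich protein that binds sperm and is made mainly in the more distal epididymis. Its levels were -1.40 and -6.39 on AP20187 arrays 2 and 3, against -7.33 and -7.26 on vehicle arrays and -0.41, -5.11 and 6.68 on wild-type arrays 1 to 3, and its spot on AP20187 array 1 was dropped. Wild-type array 3 was the highest by far. Of the other arrays with a value, only wild-type array 1 and AP20187 array 2 were well above background. With the dropped spot kept, AP20187 array 1 had 2.41, also well above background.

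**Figure D2:**
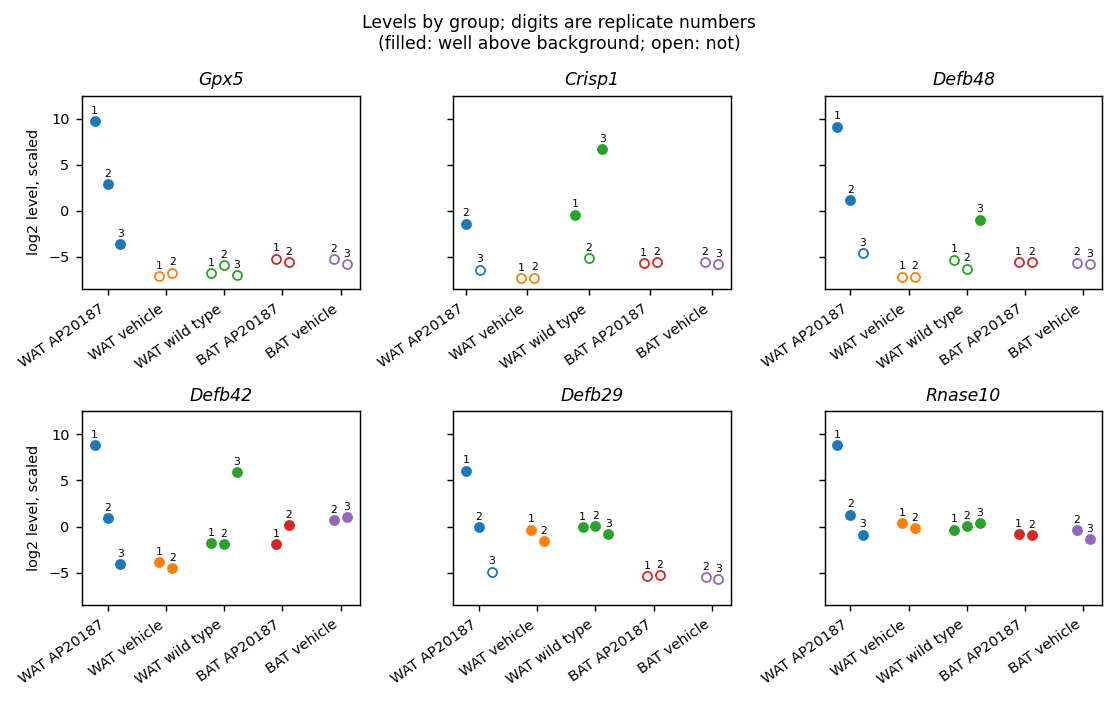
Each panel plots 1 gene, with the log2 level on the vertical axis, the group on the horizontal axis, 1 point per array labelled with its replicate number, filled where the probe was well above background and open where not. Gpx5 separates all 3 WAT AP20187 arrays (-3.60 to 9.75) from the rest, Crisp1 peaks at 6.68 on WAT wild type 3, Defb42 is high on WAT AP20187 1 (8.83) and WAT wild type 3 (5.87), and Rnase10 lies between -1.39 and 0.36 on all arrays but WAT AP20187 1 and 2.

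Beta-defensin genes lie in groups on the genome, and the groups differed in how many members stood out. Genes within 50 annotated genes of each other in RefSeq formed 5 neighbourhoods. In that of Defb18 and Defb41, both genes stood out on AP20187 arrays 1 and 2. In that of Defb19, Defb20, Defb21, Defb22, Defb23, Defb25, Defb26, Defb28, Defb29, Defb36 and Defb45, 9 of 10 measured genes stood out on AP20187 array 1 and 5 of 11 on array 2, against 1 of 11 on wild-type array 3.

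The neighbourhood of Defb30, Defb42, Defb43, Defb47 and Defb48 had all 5 genes standing out on AP20187 array 1, 3 on array 2 and 4 on wild-type array 3. That of Defb1, Defb2, Defb9, Defb10, Defb11, Defb13, Defb15, Defb35 and Defb50 had 8 of 8 measured genes on AP20187 array 1, 2 of 9 on array 2 and 6 of 9 on wild-type array 3. The remaining neighbourhood, of the other 15 beta-defensins including Defb34, Defb37, Defb38, Defb39 and Defb40, had 7 of 14 measured genes on AP20187 array 1, 2 of 15 on array 2 and 2 of 15 on wild-type array 3. Its Defb3, Defb4, Defb5, Defb7, Defb8 and Defb46 were not well above background on any AP20187 array of white fat.

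Among the beta-defensins that stood out on both AP20187 arrays 1 and 2, Defb48 had 9.13, 1.13 and -4.58 on AP20187 arrays, against -7.14 on each vehicle array and -5.31, -6.28 and -0.95 on wild-type arrays. Defb20 had 8.97, 0.74 and -6.10 on AP20187 arrays, against -6.89 and -5.85 on vehicle arrays and -6.65, -6.10 and -5.86 on wild-type arrays. The 2 genes shared the first 2 AP20187 arrays and parted on wild-type array 3, where Defb48 was well above background and Defb20 was not.

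Defb41, known from the caput, had 7.40, -0.91 and -5.40 on AP20187 arrays, against -7.19 and -7.09 on vehicle arrays and -6.45, -6.09 and -5.47 on wild-type arrays. Defb15 had 7.74, -0.46 and -6.18 on AP20187 arrays, against -4.92 and -5.37 on vehicle arrays and -4.17, -4.83 and -0.46 on wild-type arrays. Defb15 thus had the same level on AP20187 array 2 as on wild-type array 3, whereas Defb41 was above background only on the first 2 AP20187 arrays. At the limit of the rule on AP20187 array 1, Defb50 lay 2.92 and Defb6 3.57 above the median of the other arrays, just inside, and Defb36 1.34 and Defb33 1.23, just outside. The median array was not well above background for Defb50, whose bound was 1.72, so Defb50 is not shown to pass 2 log2 units.

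The members that stood out on both AP20187 arrays 1 and 2 kept nearly the same distance between the arrays. Over these 19 genes, the level on array 1 minus that on array 2 had a median of 8.22 log2 units and quartiles of 7.99 and 8.32. The extremes were 6.82 for Gpx5 and 9.02 for Rnase9. Genes had to pass on both arrays, so the rule itself limited these distances. On array 2 the bounds of Rnase9 (1.87) and Defb35 (1.72) lay under 2, so neither gene is shown to pass there. The other probe of Defb28 went the other way, with -6.32 on array 1 and 0.41 on array 2. For comparison, 7 further epididymal genes outside the list that stood out on both arrays had a median distance of 8.42 (7.73 to 8.86). The 6 genes of the testicular germ cell list well above background on both had 5.32 (3.90 to 6.67). These were selected differently, since 0 of 8 genes of that list stood out on array 2, so their distance cannot be set against the other 2.

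The other 19 members that stood out on array 1 did not on array 2. For 9 of them, the level on array 1 less 8.22 fell under -4.42, the lowest level of any probe well above background on array 2. The array 2 spots of 4 of the 19, Defb9, Defb37, Defb39 and Defb47, lay in an area of weak signal on that array, and 12 of the 19 met at least 1 of these conditions. Defb47 had 7.35 on array 1, -5.76 on array 2 and -6.21 on array 3, against -4.24 and -6.48 on vehicle arrays and -3.88, -3.34 and -3.22 on wild-type arrays. Of the 19, Defb11, Defb22, Defb29, Defb45 and Rnase10 were well above background on array 2 and fell short of the 2 log2 units.

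**Figure D3:**
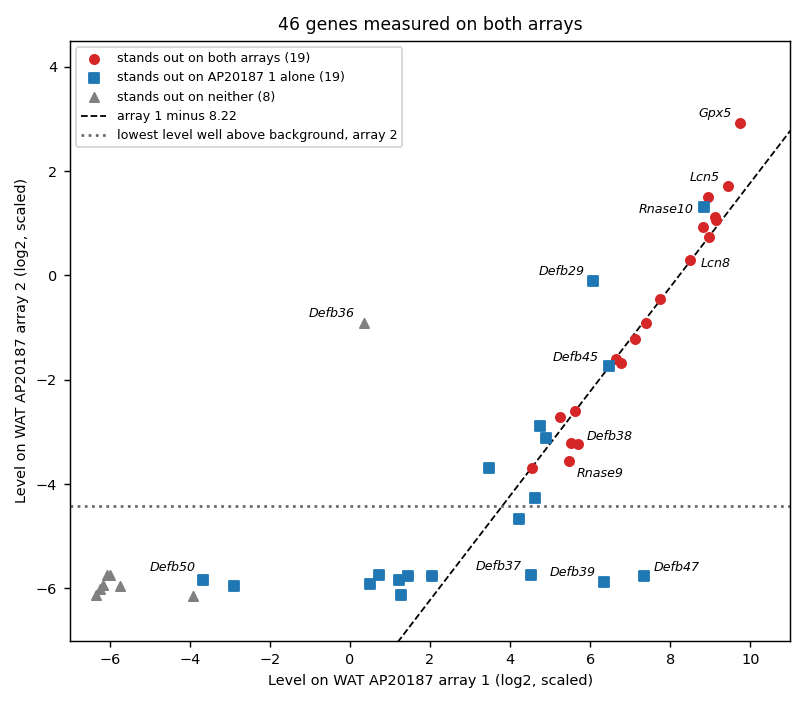
The level on WAT AP20187 array 1 (horizontal, log2) is plotted against that on WAT AP20187 array 2 (vertical, log2) for the 46 genes measured on both, with the dashed line 8.22 log2 units below equality and the dotted line at the lowest level well above background on array 2 (-4.42). The 19 red points, which stand out on both arrays, lie along the dashed line, and most blue points below 3 on the horizontal axis lie at the background of array 2.

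Wild-type array 3 brought out a smaller set. Its 14 members were Crisp1, Defb1, Defb2, Defb9, Defb11, Defb15, Defb28, Defb30, Defb34, Defb40, Defb42, Defb43, Defb48 and Defb50, 12 of which also stood out on AP20187 array 1. Crisp1 and Defb2 could not be compared, because their spots on AP20187 array 1 had been dropped. With those spots kept, Crisp1 had 2.41 and Defb2 4.75 on that array, both well above background. Conversely, 26 members stood out on AP20187 array 1 and not on wild-type array 3, among them Gpx5, Lcn8, Rnase9, Cst11 and Defb41. At the limit of the rule on wild-type array 3, Defb40 lay 2.16 above the median of the other arrays, just inside, and Lcn5 1.83, just outside. The bounds of Defb40 (0.70) and Defb9 (1.29) lay under 2, so these 2 genes are not shown to pass there.

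For the 12 shared members the distance between AP20187 array 1 and wild-type array 3 varied widely, with a median of 6.97 log2 units, quartiles of 2.91 and 8.56, and extremes of -4.97 for Defb50 and 10.08 for Defb48. Defb50 had -3.66, -5.85 and -6.26 on AP20187 arrays 1 to 3, against -7.07 and -6.59 on vehicle arrays and -6.73, -6.88 and 1.30 on wild-type arrays. Defb1, a beta-defensin that many epithelia make, had 1.24, -5.84 and -6.29 on AP20187 arrays, against -7.10 and -5.60 on vehicle arrays and -6.75, -6.90 and 1.46 on wild-type arrays. Defb1 was thus alike on AP20187 array 1 and wild-type array 3, and Defb50 was higher on the wild-type array.

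Defb43 had 4.23, -4.66 and -6.46 on AP20187 arrays, against -7.29 and -7.27 on vehicle arrays and -6.89, -7.06 and 1.43 on wild-type arrays. Defb2 had -3.53 and -4.14 on AP20187 arrays 2 and 3, against -5.79 and -4.88 on vehicle arrays and -4.87, -6.29 and 0.23 on wild-type arrays. In both, wild-type array 3 was the only wild-type array well above background. Defb4, which stood out on vehicle array 1 alone at -2.37, was not well above background on any other array.

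**Figure D4:**
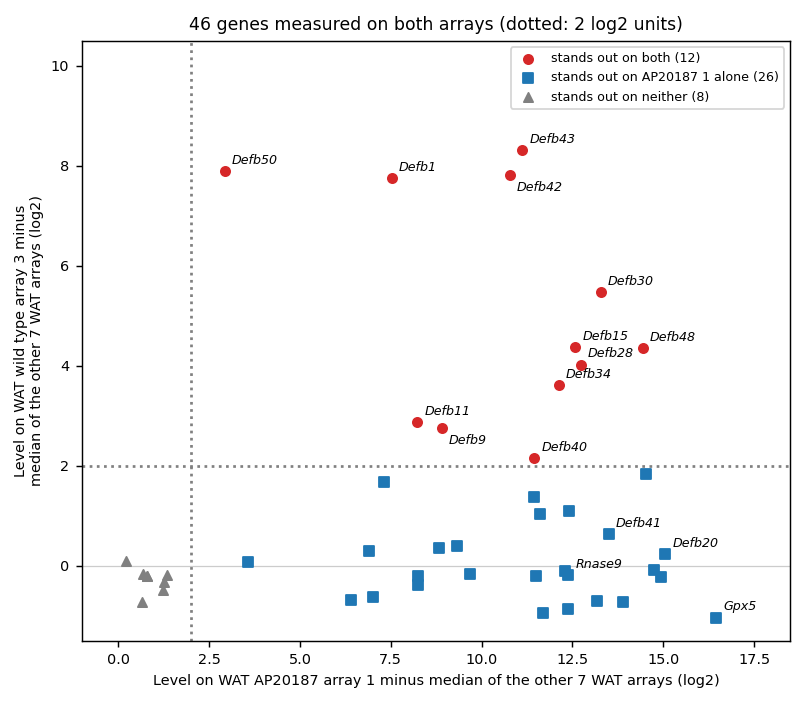
For the 46 genes measured on both arrays, the horizontal axis gives the log2 level on WAT AP20187 array 1 minus the median of the other 7 WAT arrays, and the vertical axis the same for WAT wild type array 3, with dotted lines at 2 log2 units and median levels as measured, also where they were not well above background. The 12 red points stand out on both arrays, the 26 blue points on AP20187 array 1 alone, and Defb50 and Gpx5 mark the opposite corners.

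A few beta-defensins had signal on most white fat arrays and not only on the 3 that stood apart. Defb42 was well above background on all 13 arrays. Its levels were 8.83, 0.93 and -4.10 on AP20187 arrays of white fat, against -3.84 and -4.52 on vehicle arrays and -1.78, -1.94 and 5.87 on wild-type arrays. AP20187 array 1 and wild-type array 3 were the highest, and the vehicle arrays were lower than every wild-type array.

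Defb29 had 6.08, -0.10 and -4.90 on AP20187 arrays, against -0.32 and -1.54 on vehicle arrays and -0.10, 0.02 and -0.79 on wild-type arrays. It was well above background on every white fat array except AP20187 array 3. Defb36 had 0.35, -0.91 and -3.36 on AP20187 arrays, against -0.99 and -1.69 on vehicle arrays and -0.34, -0.60 and -1.11 on wild-type arrays. Defb45 had 6.48, -1.74 and -4.75 on AP20187 arrays, against -2.38 and -2.85 on vehicle arrays and -3.23, -3.22 and -2.45 on wild-type arrays. In these 3 genes AP20187 array 3 was the lowest white fat array by the probe used. For Defb45 the other probe had -4.70 there, above all 5 control arrays, and was well above background on AP20187 array 1 alone.

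Markers of epithelium were uneven over the same arrays. Epcam, an adhesion protein of epithelial cells, had 2.45, -1.35 and -6.17 on AP20187 arrays, against -0.87 and -2.76 on vehicle arrays and -0.61, -0.31 and 0.86 on wild-type arrays. Cdh1, the epithelial cadherin, had 2.91, -1.60 and -4.95 on AP20187 arrays, against -1.44 and -2.39 on vehicle arrays and -1.24, -1.06 and 1.26 on wild-type arrays. For the whole epithelial list of 5 genes, the mean level was 4.55, 0.80 and -1.59 on AP20187 arrays, against 0.96 and -0.08 on vehicle arrays and 0.99, 1.18 and 2.82 on wild-type arrays. Their lowest white fat array was AP20187 array 3, as for Defb29, Defb36 and Defb45 by the probes used. It was not the lowest for Defb11 (-3.16), Defb25 (-2.80) or Defb42 (-4.10), each well above background on every white fat array with a value. There Defb11 lay above both vehicle arrays, Defb25 above every control array and Defb42 above vehicle array 2. On wild-type array 3 Epcam and Cdh1 were the highest of the control arrays. Of the wild-type arrays, array 3 was the lowest for Defb29 and Defb36 and the highest for Defb45 by the probe used. The part of epithelial cells in the levels of the beta-defensins was not tested.

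The members known from a given segment of the duct separated the arrays further. For the initial segment the list held Ros1, Cst8, Lcn8, Lcn9 and Rnase10, and 4 of 4 measured genes stood out on AP20187 array 1, 3 of 5 on array 2 and 0 of 5 on wild-type array 3. For the caput it held Lcn5, Gpx5, Adam7 and Defb41, and 4 of 4 stood out on AP20187 array 1, 4 of 4 on array 2 and 0 of 4 on wild-type array 3. Crisp1, the only gene listed for the distal epididymis, stood out on wild-type arrays 1 and 3 and AP20187 array 2. Its dropped spot on AP20187 array 1 had 2.41 if kept. These lists share members with the genes described here and were chosen with earlier results known.

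Genes of neighbouring male tract tissues were also uneven. Akr1b7, the aldo-keto reductase of the vas deferens, had 2.09, -3.23 and -2.79 on AP20187 arrays, against -4.54 and -3.07 on vehicle arrays and 2.12, -2.33 and 9.44 on wild-type arrays. The 7 seminal vesicle genes averaged -4.56, -5.19 and -5.64 on AP20187 arrays, against 0.82 and -4.67 on vehicle arrays and -5.59, -5.96 and 3.42 on wild-type arrays. The 4 prostate genes averaged 0.79 on wild-type array 3 and lay between -6.73 and -5.46 on the other white fat arrays, with Pbsn at 4.53 and Tgm4 at 3.39 on wild-type array 3.

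The lists overlapped between arrays. Akr1b7 stood out on AP20187 array 1 and on wild-type arrays 1 and 3, the seminal vesicle gene Pate4 stood out on AP20187 array 1 at -0.96 and had 8.43 on wild-type array 3, and the Crisp1 spot on AP20187 array 1 had been dropped. The 8 genes of testicular germ cells and sperm averaged 2.41, -2.77 and -4.31 on AP20187 arrays, against -0.62 and -4.03 on vehicle arrays and -3.09, -3.15 and -3.70 on wild-type arrays, and 8 of 8 stood out on AP20187 array 1. On vehicle array 1, where Defb4 stood out, so did 7 of 7 seminal vesicle genes and 6 of 8 germ cell genes, with Svs5 at 4.52 and Prm1 at 2.15. The part of any of these tissues in the members' levels was not tested.

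**Figure D5:**
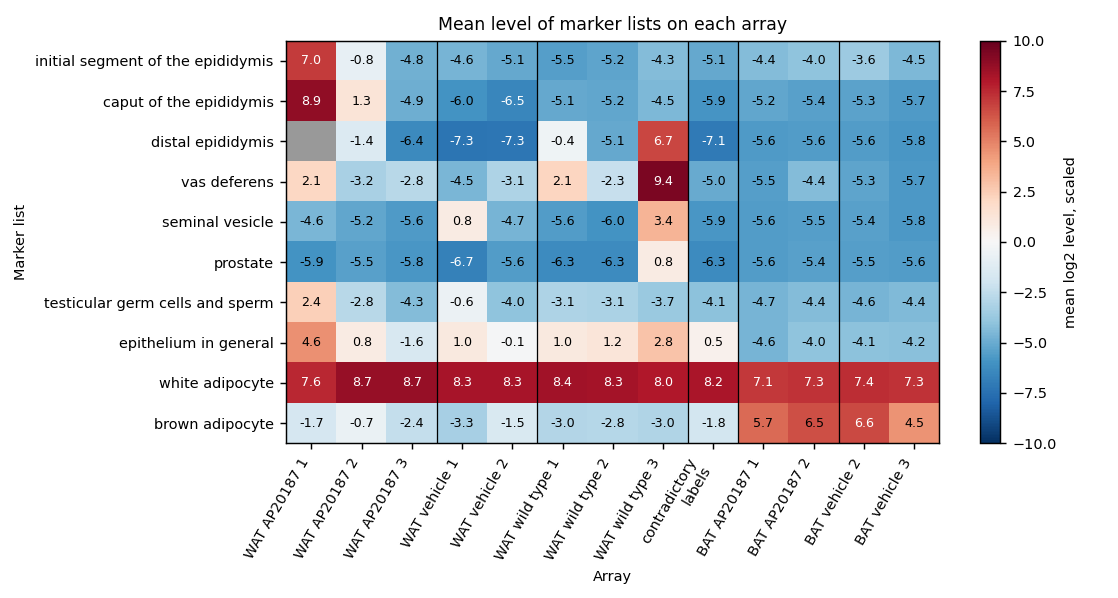
Each cell gives the mean log2 level of a marker list (rows) on an array (columns), and grey marks the array on which the spot of Crisp1, the only distal gene, was dropped. The lists of the initial segment (7.03) and caput (8.89) are high on WAT AP20187 1, those of the distal epididymis (6.68), vas deferens (9.44), seminal vesicle (3.42) and prostate (0.79) on WAT wild type 3, and white adipocyte genes on all arrays.

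Differences between the groups were then tested with limma across all features. A feature entered if some group had it well above background on all of its arrays, which let in 10 of the 51 members: Adam7, Defb11, Defb25, Defb29, Defb36, Defb42, Defb45, Defb47, Gpx5 and Rnase10. In white fat, AP20187 against vehicle, limma called 0 of these 10 at an adjusted p under 0.05, against 2.23% of 24473 features, and 2 of the 10 had an unadjusted p under 0.05, against 22.3% of features. All 10 changes were positive, with a median of 3.24 log2 units against 0.15 for all features. The groups did not overlap for 3 of the 10, Defb11, Defb25 and Gpx5, against 38.5% of features, so neither share lay above the background.

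Gpx5 averaged 3.03 ± 6.68 in AP20187 arrays and -6.90 ± 0.27 in vehicle arrays (SD, n = 3 and 2), a change of 9.93 with a standard error of 2.92 and a limma adjusted p of 0.10. Because neither vehicle array had its probe well above background, the difference is a bound, at least 550.2-fold on the means. Against wild type the bound was at least 375.5-fold, with a limma adjusted p of 0.0539. Within slide 2, the AP20187 mean was at least 612.8-fold above vehicle array 2, and with slide as a fixed block the limma adjusted p was 0.40. Gpx5 entered the fit only through the AP20187 group of white fat, since no other array had its probe well above background. Its p-values are therefore no independent support for the difference. It passed without AP20187 array 1 at a fitted change of 6.57 (limma adjusted p = 0.0495). Without AP20187 array 3 it passed at 13.24 (limma adjusted p = 0.0263). Without AP20187 arrays 1 and 2 and wild-type array 3 the fitted change was 3.30, where AP20187 array 3 was the only array of its group.

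Defb25 averaged -0.99 ± 2.57 in AP20187 arrays and -3.30 ± 0.27 in vehicle arrays (SD, n = 2 each, since the spot on AP20187 array 1 was dropped), a change of 2.31 with a limma adjusted p of 0.21. Without AP20187 array 3 its fitted change was 4.13, which leaves AP20187 array 2 as the only value of that group. Adam7, which had values on AP20187 arrays 1 and 2, passed without array 3 at 10.15 (limma adjusted p = 0.0465). Defb29 averaged 0.36 ± 5.50 in AP20187 arrays and -0.93 ± 0.86 in vehicle arrays (SD, n = 3 and 2), a change of 1.29 with a limma adjusted p of 0.76. Without AP20187 arrays 1 and 2 and wild-type array 3, its direction turned, with a fitted change of -3.97. AP20187 array 3 was then the only array of its group. Defb29 was not well above background there, so this difference is not exact. Defb29 entered the fit only through the vehicle and wild-type groups of white fat. The arrays left out were those that stood apart on the members themselves. Without AP20187 array 1 alone, the fitted change turned negative for Defb29, Defb36, Defb45 and Defb47 (-1.57 to -0.63), none of them called. Without the 3 arrays it was negative for 6 of the 10. Which of the AP20187 arrays entered thus decided both calls and signs.

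In AP20187 against wild type, limma called 0 of 10 members, against 8.86% of all features, and 2 members had an unadjusted p under 0.05, against 28.6% of features. Of the 10 changes 9 were positive and that of Defb36 was -0.62, with a median of 2.38. The groups did not overlap for Defb25 and Gpx5, against 38.1% of features. Defb42 averaged 1.88 ± 6.52 in AP20187 arrays and 0.72 ± 4.47 in wild-type arrays (SD, n = 3 each). Without AP20187 array 1 the fitted change turned negative for 5 members, Defb11, Defb29, Defb42, Defb45 and Defb47 (-2.51 to -0.25). Of these, limma called Defb47 alone, with a change of 1.94 over all arrays and -2.51 without that array (limma adjusted p = 0.0225). Its AP20187 array 2 spot lay in the weak area. Defb47 entered the fit only through the wild-type group, so this p-value is no independent support for the difference. The 2 comparisons with AP20187 share the same AP20187 arrays, and the one with wild type also compares slides.

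In vehicle against wild-type white fat, limma called 0 of the 10 tested, against 0.0245% of all features. At an unadjusted p under 0.05 there were 0 members, against 5.03% of features, and the median change was -0.65. The groups did not overlap for 3 of the 10, Adam7, Defb42 and Defb47, all lower in vehicle arrays, against 34.8% of features. Adam7 and Defb47 entered the fit only through the wild-type group, which favours higher levels there. Their direction is therefore no independent support for a difference. Defb42 averaged -4.18 ± 0.48 in vehicle arrays and 0.72 ± 4.47 in wild-type arrays (SD, n = 2 and 3), a change of -4.90 that limma did not call. Within slide 1, vehicle array 1 minus the mean of the wild-type arrays was -4.56 log2 units, and wild-type array 3 was the highest of that mean's arrays.

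In brown fat the members were near background. Between 2 and 4 of the 51 were well above background on each brown fat array, and limma called 0 of the 10 tested, against 0.00817% of all features, with 0 at an unadjusted p under 0.05, against 7.36%. Rnase10 had -0.83 and -0.95 on AP20187 arrays 1 and 2, against -0.35 and -1.39 on vehicle arrays 2 and 3. Defb42 had -1.94 and 0.15 on AP20187 arrays, against 0.66 and 1.05 on vehicle arrays, a change of -1.75 that limma did not call. Both were well above background on all 4 arrays. The groups did not overlap for Defb25, Defb29 and Defb42, 3 of the 10, against 37.3% of features. Gpx5, Lcn5, Lcn8, Cst11 and Crisp1 were not well above background on any of the 4.

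For 4 members another probe was on the array, and for Defb28, Defb41 and Defb45 the probes disagreed. For Defb28 the probe used had 6.77, -1.68 and -1.94 on AP20187 arrays 1 and 2 and wild-type array 3, while the other had -6.32, 0.41 and -0.28 there. The level of Defb28 on AP20187 array 1 therefore depends on which probe is read. On AP20187 array 2 the probe used for Defb41 had -0.91 and the other -5.87, and on vehicle array 1 the probe used for Defb45 had -2.38 and the other -7.09. The other probes of Defb41 and Defb45 lay in an area of weak signal on AP20187 array 2.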

How the data were processed

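Intensities were analysed from 13 single-dye (Cy3) arrays. The intensity used for each spot is the deposited gProcessedSignal, which had its background subtracted by Feature Extraction 10.7.1.1 within each array, per the file headers and the submitters' processing notes, on a design annotated to mm9. The authors' value table holds intensities that equalled it within 0.1% for 99.0 to 99.2% of values and left low cells blank, with column medians of 32.8 to 105, so no scaling or centring was found, and direction does not arise with 1 dye.

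Outlier spots were dropped, spots of a probe averaged, and log2 signals reduced by each array's 75th percentile. RefSeq accessions named 26056 of 55681 probes, and 29625 stayed unnamed. Each gene used the probe with the highest mean level. Probes that all arrays of some group had well above background were fitted over 12 arrays with limma 3.58.1 (R 4.3.3), which gave 24473 features, with Benjamini-Hochberg adjustment at 0.05. The number of arrays limits the precision. Named genes are the members, with values in full where they stand out or carry a test.

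The members, marker lists, the rule for standing out and the tests were chosen with earlier results of these data known. Replicate numbers did not pair the arrays. Alternatives were other scalings (offset 50 for normexp, on median spot signals), the value table, other filters, probe means, only the compared arrays, slide or replicate blocks, each array left out, and, chosen after seeing the data, outlier spots kept, weak areas left out (windows of 11 by 5 spots whose median lay over 1 log2 unit under the other arrays) AP20187 arrays 1 and 2 with wild-type array 3 left out, and low levels raised to the lowest level well above background of their array. The fit was tested on simulated data.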

Additional observations from a re-analysis of the deposited data

Results flagged for a closer look

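Spots of 6 member probes on AP20187 array 1 of white fat were marked as outliers by the scanner software and were not used above, yet each was well above background and brighter than on either vehicle array. With the spots kept, Defb25 had a level of 8.24 on AP20187 array 1, against a highest vehicle level of -3.11. Lcn9 had 6.29, against -6.18 on the brighter vehicle array. Defb2 had 4.75, against -4.88, and Defb12 had 3.78, against -7.16. Crisp1 had 2.41, against -7.26 on the brighter vehicle array and 6.68 on wild-type array 3. The probe of Defb41 that was not used had 2.08, against -5.71. With these spots, 43 of 51 members stood out on AP20187 array 1. No share over all features with such spots kept is given beside this count. Of all arrays, this one had the most outlier spots dropped (863). Whether the marks reflect faulty spots was not tested.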

How the results depend on the processing

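The 38 members standing out on AP20187 array 1 ranged between 36 and 43 over all 12 alternatives. The 22 on AP20187 array 2 became 9 with normexp and quantile scaling, 14 in the value table and 2 when set against the highest of the other 7 arrays. Under the same 3 alternatives, the 14 on wild-type array 3 became 6, 7 and 3, and the 3 on the other 5 white fat arrays became 0, 1 and 1. Those 3 became 5 at a limit of 1 log2 unit. The value table leaves low cells blank, and setting an array against the highest one removes members bright on several arrays, by construction. The causes of the other shifts were not tested. No shares over all features are given beside these counts, so they describe the members alone.

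In limma's tests, AP20187 against vehicle called 0 members, which became 3 with no filter. These were Defb3, Defb5 and Defb8, none of them well above background on any array. With each array left out, between 0 and 3 members were called. AP20187 against wild type called 0 members, which became 4 with no filter and between 0 and 3 with each array left out. It became 4 with slide as a random block (Adam7, Defb25, Gpx5 and Rnase10) and 1 with weak areas left out (Gpx5). For both comparisons, no shares over all features are given beside these counts, so they are no result about the members. Without AP20187 arrays 1 and 2 and wild-type array 3, the fitted change of Defb29 turned to -3.97 against vehicle and -4.86 against wild type. That left AP20187 array 3 alone in its group, where Defb29 was not well above background. The direction of a called value turned for Defb47 against wild type without AP20187 array 1, at -2.51. Defb47 entered the fit only through the wild-type group. For this gene, leaving out each array in turn gave -2.51 to 4.275. Over all alternatives, called or not, the fitted direction turned in 16 of 251 values for AP20187 against vehicle, 15 of 252 for AP20187 against wild type, 9 of 251 for vehicle against wild type and 24 of 248 in brown fat. Where AP20187 array 3 is left alone in its group, it is assumed to vary like the other groups. Vehicle against wild type and brown fat called 0 members under every alternative. With the replicate block, limma called 0 members in all 4 comparisons, and the deviations of same-numbered arrays correlated between -0.22 and 0.11, so the numbers give no evidence of pairing. The median change of all features, AP20187 against vehicle, was 0.15, -0.16 with the percentile over detected probes and 0.10 with quantile scaling. Only 10 members had enough signal over background to be tested.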

Other observations

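Genes outside the list described above also exceeded the remaining white fat arrays, some of them known from the male tract. On AP20187 array 1 they included the protease inhibitors Spink11 (7.14), Wfdc10 (9.14), Wfdc9 (6.44) and Spink5 (5.28), with Pate6 (6.39) and Teddm1a (9.02). On AP20187 array 2, Spink11 (-1.27), Wfdc10 (1.30) and Pate6 (-2.45) were again among the 10 largest. So were Myh4 (1.91) and Myh8 (2.24), myosin heavy chains of skeletal muscle, which had -6.21 and -0.90 on AP20187 array 1. The rest of these 10 were BC048679 (0.33), Fgf21 (0.40), Slc27a5 (2.04), Cyp2a4 (1.76) and Cyp2c39 (-2.47). BC048679 also had the largest excess on AP20187 array 1, at 8.36.

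On wild-type array 3, the 10 largest included Crisp3 (8.49), a relative of Crisp1 that was also high on AP20187 array 1 (9.37), Elf5 (4.14), an epithelial transcription factor, Spink8 (6.77), Fxyd4 (5.14) and Cldn8 (2.03), a claudin of tight junctions. Elf5 had -0.63 on AP20187 array 1 and -5.74 on AP20187 array 2.

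On the array with contradictory labels, 10 of 51 members were well above background and 0 stood out against the 8 white fat arrays. Rnase10 had 0.32, Defb29 -1.07, Defb36 -1.38, Defb45 -2.60 and Defb42 -3.75, while Gpx5 (-6.91) and Crisp1 (-7.06) were not well above background. Ucp1 was at -4.57 on this array.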
